A study of Rattus norvegicus with 862 samples.

Results

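Mgmt encodes O6-methylguanine-DNA methyltransferase, and its transcript was followed through the hearts of rats given 1 of 88 compounds or a vehicle. The gene was found by its symbol in the platform's annotation, which assigns it 1 probe set, 1368311_at, so that Mgmt is 1 of the 14217 genes measured. The gene was chosen by its measured changes after anthracyclines and alkylating compounds, so the comparisons of treated with control hearts below are descriptions of its levels. No single p-value is given for them. Thresholds of p serve only to call or count profiles, and these calls are descriptions too. The data comprised 862 arrays of hearts from 840 male Sprague-Dawley rats, 6 to 8 weeks of age when bought, and each rat entered with 1 array. Compounds were given for 0.25 to 7 days, and hearts of the 0.25 and 1 d groups were taken in the afternoon, whereas those of the 3 and 5 d groups were taken in the morning. A profile is 1 compound at 1 dose in 1 vehicle by 1 route, and each was set against rats given the same vehicle by the same route for as long, with RNA extracted in the same campaign (a run of extraction dates; the data hold 5).

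The compounds set apart were given as follows. Epirubicin (2.7 mg/kg), doxorubicin (3 mg/kg), daunorubicin (3.25 mg/kg) and idarubicin (0.625 mg/kg), the anthracyclines, were injected intravenously in saline for 1, 3 or 5 d, 3 rats each, and mitoxantrone (2 mg/kg), an anthracenedione, was placed beside them and given likewise. All 5 were set against the same 22 rats given intravenous saline. The nitrogen mustards were given by oral gavage for 3 or 5 d, 3 rats each: cyclophosphamide (25 mg/kg) in water against 19 controls, ifosfamide (143 mg/kg) in saline against 6 controls, and chlorambucil (4.5 mg/kg) in corn oil against 19 controls. Except for ifosfamide, most of these controls came from other studies than the treated rats. Daunorubicin was also given by gavage at 2 mg/kg, to 9 rats.

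The methyltransferase removes alkyl groups from the O6 position of guanine by moving them onto a cysteine of its own active site. Each molecule acts a single time and is then degraded, so the capacity for this repair depends on how much protein is made. In rat liver and in rat hepatoma cells the gene is known as inducible by agents that damage DNA. Anthracyclines and mitoxantrone poison topoisomerase II and intercalate in DNA without being classical alkylating agents, whereas nitrogen mustards alkylate DNA bases, chiefly at the N7 position of guanine.

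Mgmt (gene ID 25332) lies on chromosome 1 of the GRCr8 rat assembly, between positions 201140832 and 201367481 on the plus strand. The 250 bases before its start, taken from RefSeq (GRCr8, chr1:201140582-201140831, plus strand), are printed because Mgmt was called higher after agents of several classes, with the 2 GC boxes and the E box in capitals:
Mgmt promoter: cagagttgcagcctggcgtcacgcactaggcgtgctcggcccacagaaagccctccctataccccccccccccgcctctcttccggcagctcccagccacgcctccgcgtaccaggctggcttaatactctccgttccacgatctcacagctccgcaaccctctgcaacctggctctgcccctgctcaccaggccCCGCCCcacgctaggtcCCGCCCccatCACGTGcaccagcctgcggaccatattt
The GC box was searched as GGGCGG or CCGCCC and the E box as CACGTG, its own reverse complement. At least 1 GC box was found in 30.5% and the E box in 5.59% of 33469 rat promoter windows of the same length. The GC boxes began 55 and 38 bases before the start and the E box 28 bases before it. Neither the AP-1 motif TGACTCA or TGAGTCA, present in 4.05% of windows, nor the glucocorticoid receptor hexamer AGAACA or TGTTCT, present in 17.5%, was found in these letters. Of the bases of this window 66.4% were G or C, and it held 17 CpG dinucleotides, against medians of 51.2% and 5 over all windows. As many CpG dinucleotides or more were found in 21.9% of windows. These matches are letters and not measured binding.

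The mean of Mgmt over all arrays was 7.06 on the log2 scale of the deposited RMA values (1 unit is a 2-fold difference). In the control rats with a group it ran from 6.25 to 7.81 with a median of 7.00 and a mean of 7.01 ± 0.21 (SD). Control hearts of 1 d differed from those of 3 and 5 d by 0.02 ± 0.04 (SE; 52 and 114 rats; limma, adjusted p = 0.826), with a 95% interval of -0.05 to 0.09, and thus no difference with the hour or length of dosing was detected. The treated rats ran from 6.24 to 9.29 with a median of 7.03. Only 36 of them lay above the highest control rat, and 29 of these were among the 36 rats given intravenous epirubicin, doxorubicin, daunorubicin or mitoxantrone. The other 7 had received cyclophosphamide or valproic acid (2 rats each), or ifosfamide, idarubicin or loratadine (1 rat each).

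The tissue label was checked against marker genes. The median of 16 heart muscle genes lay between 11.8 and 14.0 on every array, whereas that of 19 liver genes had a median of 4.96 but reached 11.3. On the 14 arrays whose liver median was over 8, Mgmt lay between 6.45 and 7.71. These and other arrays that stood apart, 35 in all, were left out in a repeat of each fit. In 22 rats hybridised again from RNA of a later campaign, none of them given a compound set apart, the Mgmt values differed by a median of 0.10 and by at most 0.50, and 16 pairs lay within 0.25 of each other. Hearts are mixtures of cells, and in such bulk samples more cells of a type and more RNA per cell cannot be told apart.

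A profile was called where Mgmt, in the limma fit across all genes, changed at least 1.5-fold with an adjusted p (Benjamini-Hochberg) no higher than 0.01. Mgmt was called higher in 7 of 95 profiles and lower in 0. At an unadjusted p under 0.05, 12 profiles were higher and 6 lower, and the methods' t-test called 6 higher and 0 lower. After a further quantile normalization 4 were called higher, and those of ifosfamide, cyclophosphamide and valproic acid were lost. Over all genes and profiles, 0.357% of pairs were called higher and 0.344% lower, and 1.17% of genes were called higher in as many or more compounds. Since the gene was proposed from these contrasts, nothing is read from the count. The 7 were the profiles of epirubicin, doxorubicin, mitoxantrone, intravenous daunorubicin, ifosfamide, cyclophosphamide and valproic acid. At the threshold, valproic acid lay just inside, with a change of 0.60 on the log2 scale, and tacrolimus, at 0.45, just outside. Of the 88 profiles not called, 81 had a change within 0.25 of 0. The standard error of a change had a median of 0.0975 over the profiles.

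**Figure D1:**
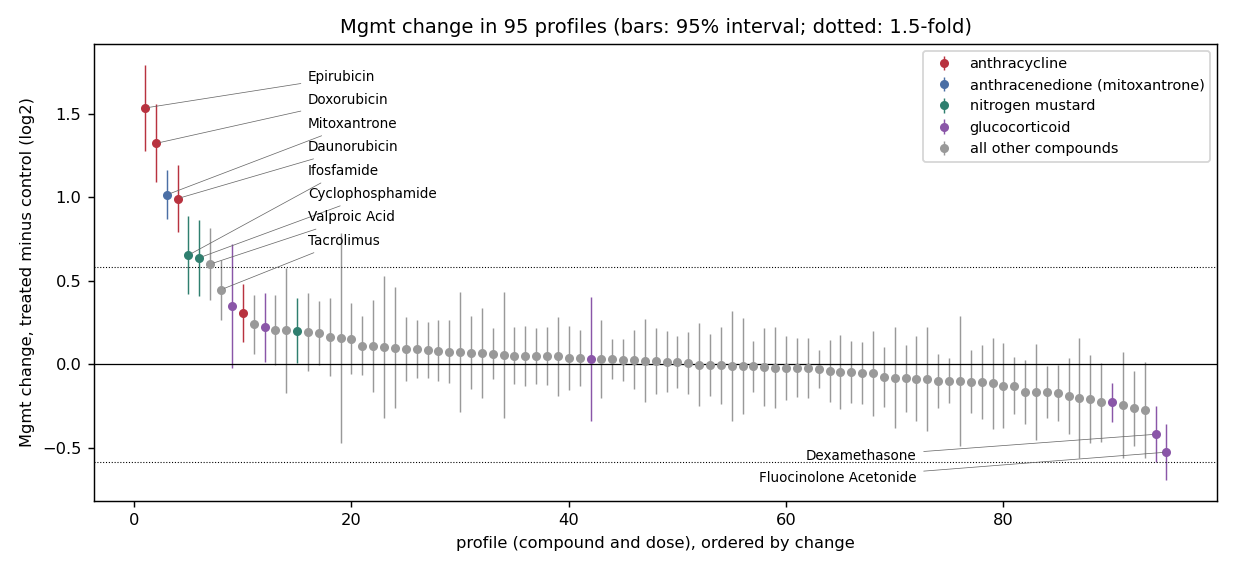
Change of Mgmt (log2, treated minus control, vertical axis) in 95 profiles ordered by it (horizontal axis), with 95% intervals as bars, 0 as a solid line and the 1.5-fold limits as dotted lines; colours mark the compound class. The 4 highest profiles are 3 anthracyclines and mitoxantrone, between 0.99 and 1.53, and the 2 lowest are the glucocorticoids dexamethasone at -0.42 and fluocinolone acetonide at -0.53.

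Epirubicin, the epimer of doxorubicin at the amino sugar, gave the highest Mgmt levels of the series. The 3 rats of 1 d had 7.29, 8.18 and 8.53, against a range of 6.92 to 7.25 and a median of 6.99 in 6 saline rats. At 3 d the treated rats had 8.19, 8.48 and 9.29, against 6.68 to 7.23 (median 6.99) in 8 saline rats. At 5 d they had 8.63, 8.79 and 8.87, against 6.70 to 7.17 (median 6.82) in 8 saline rats. All 9 treated rats lay above all 22 controls, although the lowest of them, at 1 d, cleared the highest control by little. Over all durations Mgmt averaged 8.47 ± 0.56 after epirubicin and 6.94 ± 0.18 after saline (SD, n = 9 and 22). The fitted change was 1.53 ± 0.13 (SE), or 2.9-fold with a 95% interval of 2.42 to 3.47, and 10 other genes rose more.

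Doxorubicin, an inhibitor of topoisomerase II known for its toxicity to the heart, gave levels nearly as high. Its rats had 7.78, 7.92 and 8.83 at 1 d, 8.31, 8.45 and 8.70 at 3 d, and 7.35, 8.43 and 8.66 at 5 d, against the same saline rats as above (6.68 to 7.25). All 9 lay above every control, with 1 rat of 5 d standing well below the other two. The mean was 8.27 ± 0.49 after doxorubicin and 6.94 ± 0.18 after saline (SD, n = 9 and 22), and the change was 1.32 ± 0.11 (SE), or 2.5-fold (2.13 to 2.94). The highest rat of 1 d carried fat cell transcripts (adipocyte list median over 7), and without doubtful arrays the change was 1.25 ± 0.12.

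Daunorubicin, which lacks the side-chain hydroxyl group of doxorubicin, was given at a dose close to those of both, though not the same. The intravenous rats had 7.32, 7.40 and 7.89 at 1 d, 7.86, 8.12 and 8.48 at 3 d, and 7.87, 8.11 and 8.32 at 5 d. Each of the 9 lay above all 22 saline controls. Mgmt averaged 7.93 ± 0.39 after daunorubicin and 6.94 ± 0.18 after saline (SD, n = 9 and 22). The change was 0.99 ± 0.10 (SE), or 1.99-fold (1.73 to 2.29), and 4 genes of the whole array rose more.

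Mitoxantrone, which keeps a planar ring system but carries no sugar, left levels within a narrow range. Its 9 rats lay between 7.70 and 8.17 with a median of 7.99, and the means of 1, 3 and 5 d were 7.94, 7.95 and 8.00, against 7.05, 6.95 and 6.86 in saline rats. No treated rat overlapped a control. The change was 1.01 ± 0.07 (SE), or 2.02-fold (1.83 to 2.24). In 1 rat of 1 d the liver list reached a median of 9.22 beside a Mgmt level of 7.71, and without doubtful arrays the change was 1.05 ± 0.07.

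Idarubicin, the daunorubicin analogue without the methoxy group, had been given at the lowest dose of the class. Its rats had 6.83, 7.00 and 7.29 at 1 d, 7.39, 7.48 and 7.93 at 3 d, and 6.98, 7.09 and 7.26 at 5 d, against 6.68 to 7.25 in the saline rats. Treated and control rats overlapped at 1 d and at 5 d, and did not at 3 d. The change was 0.31 ± 0.09 (SE), with an interval of 0.13 to 0.48, and was not called. After idarubicin 0 of the 14217 genes (0%) were called higher in limma and by the methods' t-test alike, with 2.9% higher at an unadjusted p under 0.05. Because the doses of the 4 anthracyclines and mitoxantrone differed, their changes stand side by side here without a test of one against another.

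Daunorubicin by gavage gave another picture, at 2 mg/kg and with RNA extracted in another campaign. Its 9 rats lay between 6.75 and 7.27, inside the range of all control rats (6.25 to 7.81). It had no controls with agreeing labels: the 8 vehicle rats of its own experiment (6.64 to 7.21) are named saline in one label and water in another. With these rats taken as controls, by the vehicle of their titles, the change was 0.01 ± 0.10 (SE), with an interval of -0.21 to 0.23. Dose, route and campaign all differed between the gavage and the intravenous rats, so their parts cannot be told apart.

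**Figure D2:**
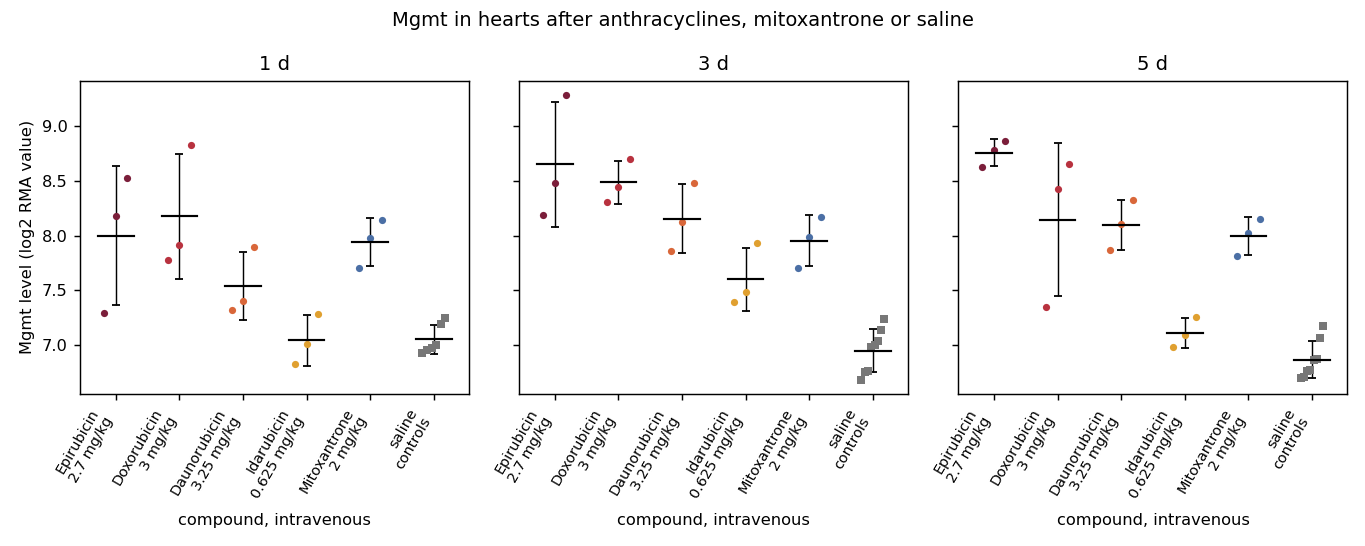
Mgmt level (log2 RMA value, vertical axis) of each rat after 4 anthracyclines or mitoxantrone and, at the right of each panel, after intravenous saline, at 1, 3 and 5 d; horizontal lines are means and bars SDs. After epirubicin, doxorubicin, daunorubicin and mitoxantrone every rat lies above the highest saline rat (7.25), whereas idarubicin rats overlap with the controls at 1 and 5 d.

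The changes at single durations were set side by side. After epirubicin the changes at 1, 3 and 5 d were 0.95, 1.71 and 1.90, after daunorubicin 0.49, 1.21 and 1.24, and after doxorubicin 1.13, 1.54 and 1.28. Mitoxantrone gave 0.89, 1.01 and 1.13, so most of its change was present at 1 d. Idarubicin gave -0.01, 0.65 and 0.25. The interaction of treatment and duration, tested in limma over all genes, had unadjusted p-values of 0.00344 for epirubicin, 0.000827 for daunorubicin, 0.00362 for idarubicin, 0.341 for doxorubicin and 0.411 for mitoxantrone. Adjusted over all genes these were 0.14, 0.213, 0.593, 0.744 and 0.813, so that no difference between durations was established.

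Cyclophosphamide, an oxazaphosphorine mustard activated in the liver, was followed by higher Mgmt levels chiefly at 5 d. Its 3 rats of 3 d had 7.34, 7.34 and 7.50, against 6.85 to 7.54 with a median of 7.09 in 9 water controls. At 5 d the treated rats had 7.60, 7.95 and 8.35, against 6.79 to 7.10 with a median of 6.98 in 10 controls. The groups thus overlapped at 3 d and not at 5 d, and the changes were 0.29 ± 0.13 and 0.98 ± 0.12 (SE). Over both durations the change was 0.64 ± 0.11, or 1.56-fold (1.33 to 1.82). It was no longer called without the 5 d rats, at 0.29, or without the highest 5 d rat, at 0.50.

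Ifosfamide, an isomer of cyclophosphamide with a chloroethyl group on the ring nitrogen, was given at a higher dose and also had its higher levels at 5 d. The treated rats had 7.40, 7.47 and 7.54 at 3 d, against 6.98, 7.08 and 7.12 in saline controls. At 5 d they had 7.73, 7.78 and 8.25, against 6.92, 6.99 and 7.16. No treated rat overlapped a control at either duration. The changes were 0.41 ± 0.10 at 3 d and 0.90 ± 0.15 at 5 d, and 0.65 ± 0.11 (SE), or 1.57-fold (1.34 to 1.85), over both. With 6 treated and 6 control rats this call was the least secure, since leaving out 1 rat ended it in 9 of 12 cases, with changes between 0.55 and 0.70.

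Chlorambucil, an aromatic nitrogen mustard that needs no activation, was given at the lowest dose of the group. Its rats had 6.81, 7.23 and 7.28 at 3 d, against 6.75 to 7.34 with a median of 7.11 in 8 corn oil controls. At 5 d they had 7.22, 7.28 and 7.59, against 6.71 to 7.26 with a median of 7.04 in 11 controls. The ranges overlapped at both durations. The change was 0.20 ± 0.09 (SE), with an interval of 0.00481 to 0.395, and was not called. The doses, vehicles and controls of the 3 mustards differed, and they were not compared with each other. For all of them the change at 5 d was the larger, but the interaction with duration had adjusted p-values of 0.239 for cyclophosphamide, 0.995 for ifosfamide and 0.409 for chlorambucil in limma (unadjusted, 0.000621, 0.0207 and 0.0665).

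**Figure D3:**
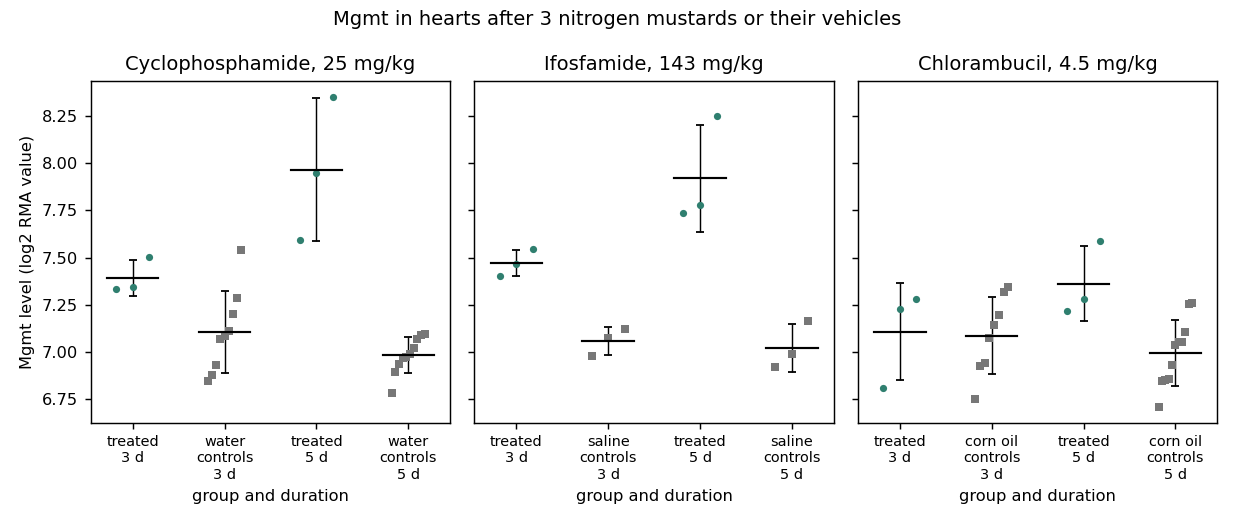
Mgmt level (log2 RMA value, vertical axis) of each rat after 3 nitrogen mustards, each beside its own vehicle controls, at 3 and 5 d; horizontal lines are means and bars SDs. The 5 d rats of cyclophosphamide (7.60 to 8.35) and ifosfamide (7.73 to 8.25) lie above all their controls, whereas chlorambucil rats overlap with theirs.

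The order of levels over the treated conditions (a profile at 1 duration) placed 13 conditions of these compounds at the top. Epirubicin at 5 d (8.76 ± 0.12) and at 3 d (8.65 ± 0.57; SD, n = 3 each) came first, followed by doxorubicin at 3 d (8.49 ± 0.20). The 13th was ifosfamide at 5 d (7.92 ± 0.28), and after it came valproic acid at 5 d (7.65 ± 0.29) and at 3 d (7.64 ± 0.50). Neighbours in this order overlapped in their ranges, so it ranks groups and not single steps. At the other end stood fluocinolone acetonide at 3 d (6.43 ± 0.10) and dexamethasone at 5 d (6.56 ± 0.15). The control conditions of more than 1 rat, pooled over campaigns, had means from 6.86 to 7.24, the lowest being the intravenous saline rats of 5 d. Within campaigns, as in the comparisons, the means ran from 6.71 to 7.29. These ends were 3 rats each of campaign 5 given water by gavage, for 5 d and for 1 d.

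Some other agents that could act on DNA or on cell division were not followed by such levels. They were added after their values were seen or for their class, so their values are a description. The vinca alkaloids vinblastine and vinorelbine, which block microtubules, were set against 16 of the same saline rats, with changes of 0.08 ± 0.08 and 0.08 ± 0.09 (SE, n = 6 each). Acrolein, a reactive aldehyde that is also a by-product of cyclophosphamide activation, gave 0.03 ± 0.06 (n = 8). For allylamine, which is oxidised to acrolein, the changes were 0.05 ± 0.08 at 75 mg/kg and -0.10 ± 0.06 at 40 mg/kg, and for furan the change was -0.01 ± 0.08. Among nucleoside analogues, zidovudine gave 0.03 ± 0.11 and azaribine -0.19 ± 0.11. The intervals of these changes lay between -0.42 and 0.27, below the 1.5-fold limit on both sides.

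Valproic acid, an anticonvulsant that inhibits histone deacetylases, was the remaining called profile. At 3 d its rats had 7.20, 7.53 and 8.17, against 6.85 to 7.54 in 9 water controls, and at 5 d 7.32, 7.78 and 7.86, against 6.79 to 7.10 in 10. The ranges overlapped at 3 d and did not at 5 d. The change was 0.60 ± 0.10 (SE), or 1.52-fold (1.31 to 1.76), at a dose of 1500 mg/kg, and was not called after the further quantile normalization, at 0.58. These controls were those of cyclophosphamide. Tacrolimus, a calcineurin inhibitor, gave 7.28 to 7.72 in 6 rats, against 6.70 to 7.34 in 18 controls, and a change of 0.45 ± 0.09 that stayed under the fold limit. Cyclosporin A, another calcineurin inhibitor, had changes of 0.09 ± 0.09 at 350 mg/kg in corn oil and 0.06 ± 0.07 at 300 mg/kg in an acacia vehicle, and neither was called.

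Glucocorticoids were spread over the order and held its lower end. Fluocinolone acetonide, a fluorinated steroid given under the skin at 2.5 mg/kg, left all 9 treated rats below their 9 controls, with 6.45, 6.59 and 6.90 at 1 d, 6.32, 6.49 and 6.50 at 3 d, and 6.31, 6.68 and 6.93 at 5 d, against 6.95 to 7.27. The change was -0.53 ± 0.08 (SE). Dexamethasone at 1 mg/kg gave 6.59, 6.70 and 6.78 at 3 d, against 6.75 to 7.34 in 8 controls, and 6.38, 6.64 and 6.65 at 5 d, against 6.71 to 7.26 in 11. Its change was -0.42 ± 0.08, and 5 of its 6 rats lay below every control. The 19 controls were those of chlorambucil, and fluocinolone acetonide shared its own with hydrocortisone. Both changes were smaller than 1.5-fold, which is why neither was called. Hydrocortisone gave -0.23 ± 0.06, whereas cortisone, prednisolone and prednisone, each followed for 1 d only with 3 rats, gave 0.03 ± 0.17, 0.22 ± 0.10 and 0.35 ± 0.17. Doses, routes and durations differed within the class, and the steroids were not tested against each other. Beside these values, genes of fibroblasts and matrix had median changes of -2.0 after fluocinolone acetonide and -1.76 after dexamethasone, with 7 of 10 called lower in each (3.28% and 3.68% of all genes were called lower). The median of these matrix genes lay between 8.22 and 9.99 in fluocinolone acetonide rats, against 10.3 to 11.0 in controls, and between 8.74 and 9.44 in dexamethasone rats, against 10.3 to 10.9. Macrophage genes had median changes of 0.81 and 0.69. The part of either list in the lower Mgmt levels was not tested.

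**Figure D4:**
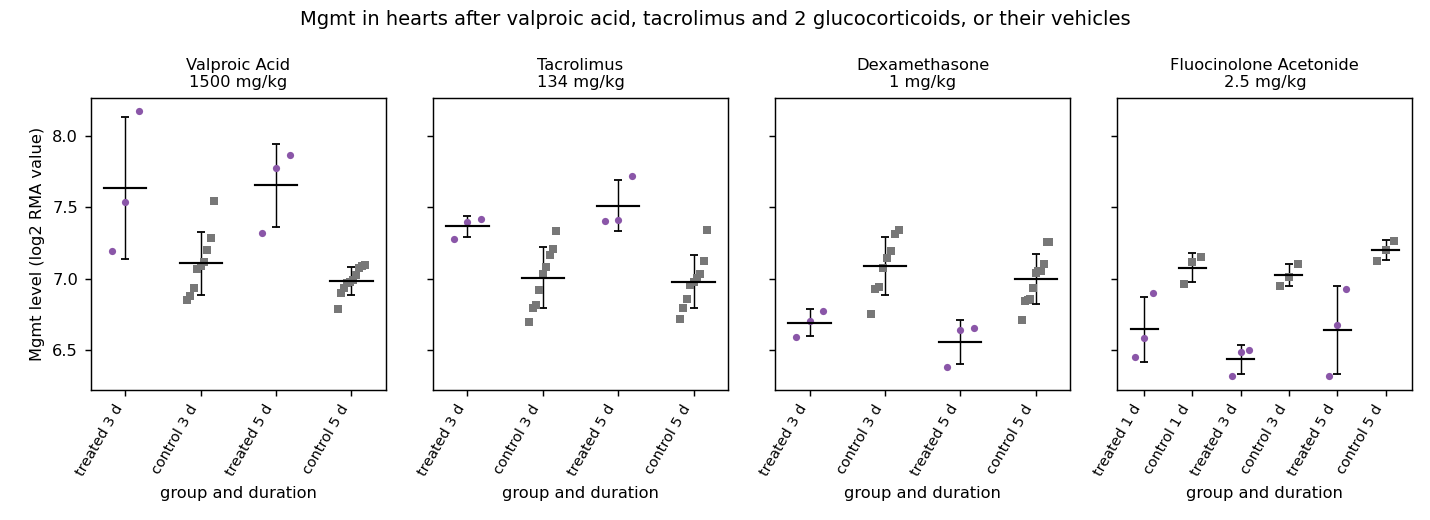
Mgmt level (log2 RMA value, vertical axis) of each rat after valproic acid, tacrolimus, dexamethasone or fluocinolone acetonide, each left of its vehicle controls at the same duration; horizontal lines are means and bars SDs. Valproic acid and tacrolimus rats sit mostly above their controls, whereas all 9 fluocinolone acetonide rats (6.31 to 6.93) sit below theirs (6.95 to 7.27).

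The other enzymes of DNA repair were then examined in the 8 profiles set apart. The list held 61 measured genes beside Mgmt, from direct reversal, base excision, mismatch and nucleotide excision repair, interstrand crosslink and homologous recombination repair, and end joining. Of these 61, 0 were called higher and 0 lower in any of the 8 profiles, in which the shares of all genes called higher were 1.53% for epirubicin, 0.753% for doxorubicin, 0.0774% for daunorubicin, 0% for idarubicin, 0.542% for mitoxantrone, 1.62% for cyclophosphamide, 0.253% for ifosfamide and 0.0844% for chlorambucil. The methods' t-test called 0 of them as well. At an unadjusted p under 0.05 there were 17 higher and 5 lower after epirubicin, 18 and 3 after doxorubicin, 18 and 1 after cyclophosphamide, 8 and 0 after ifosfamide, 6 and 5 after mitoxantrone, 5 and 1 after daunorubicin, 3 and 0 after chlorambucil and 1 and 3 after idarubicin. At that threshold 27.9% of the repair genes were higher after epirubicin, against 16.4% of all genes, 29.5% against 15.8% after doxorubicin, 29.5% against 15.3% after cyclophosphamide and 13.1% against 8.79% after ifosfamide. In the other 4 profiles the shares were 9.84% against 8.88% after mitoxantrone, 8.2% against 8.49% after daunorubicin, 4.92% against 4.0% after chlorambucil and 1.64% against 2.9% after idarubicin. These shares are a description, and the list was not tested as a set. Their changes ran from -0.39 (Parp1 after epirubicin) to 0.57 (Fancd2 after cyclophosphamide), and their medians lay between -0.02 and 0.09. Mgmt exceeded all 61 after every compound set apart but chlorambucil. Its change was 1.53 against at most 0.56 (Xpa, which verifies damage in nucleotide excision repair) after epirubicin and 0.31 against at most 0.21 after idarubicin. Because Mgmt was chosen by its changes after such compounds, nothing is read from its place above the list.

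Other enzymes that act on alkylated bases stayed under the 1.5-fold limit. Alkbh2, a dioxygenase that repairs methylated bases, averaged 5.80 after epirubicin and 5.61 after saline, with a change of 0.18 ± 0.08 (SE). Alkbh3, its relative, averaged 10.4 after epirubicin and 10.6 after saline, with a change of -0.17 ± 0.05. Mpg, the glycosylase that removes alkylated purines, had a change of 0.31 ± 0.08 after epirubicin and 0.09 ± 0.09 after cyclophosphamide.

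Some targets of p53, the transcription factor that responds to DNA damage, were called higher in 7 of the 8 profiles, and most of the list was not. After ifosfamide this rested on Ephx1 alone, and after chlorambucil on Aen and Ephx1. Of 22 measured targets, 9 were called higher after epirubicin, 6 after doxorubicin, 5 after daunorubicin, 5 after mitoxantrone, 9 after cyclophosphamide, 1 after ifosfamide, 2 after chlorambucil and 0 after idarubicin, beside the shares of all genes given above, and 0 were called lower in any of them (0.0703% of all genes were called lower after chlorambucil). The list had been drawn up with earlier results of these data known. Calls in it were not confined to these profiles. Sesn1, Perp and Ephx1 were called higher after dexamethasone, and Gadd45a, Sesn1 and Perp after tacrolimus. Mgmt was called after neither. The median change of the list was 0.43 after epirubicin, 0.39 after doxorubicin and 0.57 after cyclophosphamide, against -0.01, 0.00333 and -0.000298 over all genes. Cdkn1a, the inhibitor of cyclin-dependent kinases p21, rose by 1.51 ± 0.18 after epirubicin, by 1.02 ± 0.17 after doxorubicin and by 1.54 ± 0.17 after mitoxantrone. Ephx1, the microsomal epoxide hydrolase of foreign compound metabolism, was called higher in 7 of the 8 profiles, all but idarubicin, with the largest change, 2.40 ± 0.19, after doxorubicin. Outside these profiles, Ephx1 changed by 0.80 ± 0.16 after dexamethasone, where it was called, and by 0.90 ± 0.22 after prednisone, where it was not. Aen, a nuclease induced in apoptosis, rose by 0.94 ± 0.06 after epirubicin and by 1.06 ± 0.11 after cyclophosphamide. After ifosfamide, in which Mgmt was called, Cdkn1a changed by 0.12 ± 0.14, Aen by 0.68 ± 0.13 and Phlda3 by 0.47 ± 0.10 (SE). Psrc1 alone of the list was lower, by -0.19 ± 0.08, and none of these genes was called.

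**Figure D5:**
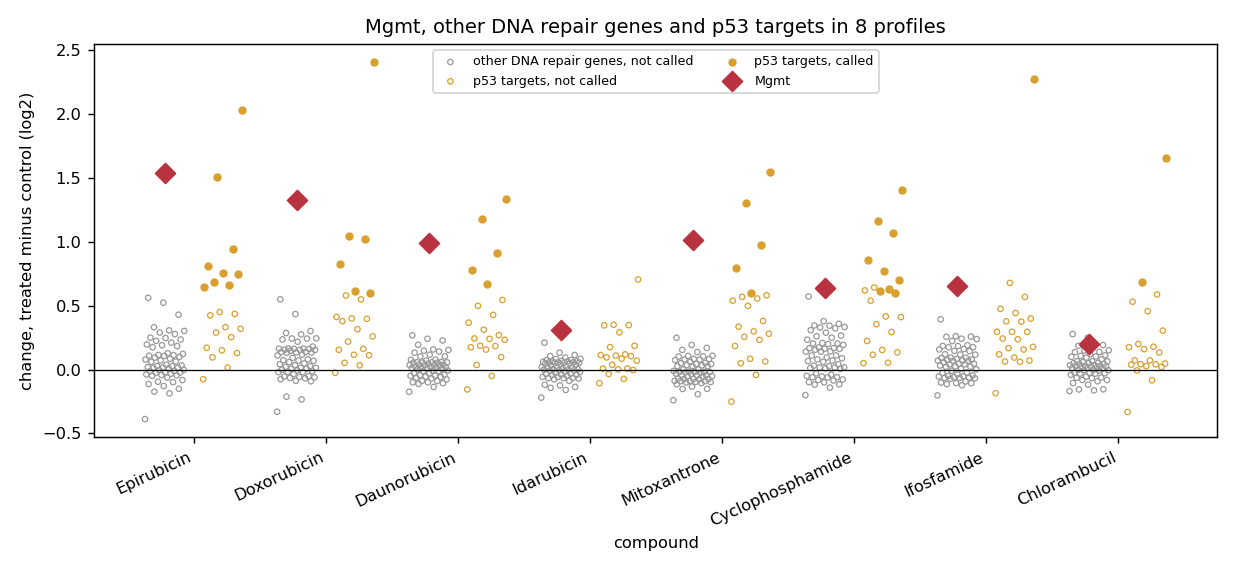
Change (log2, treated minus control, vertical axis) of Mgmt (diamonds), of 61 other DNA repair genes (grey) and of 22 p53 targets (orange) in the 8 profiles set apart; filled circles are called genes, open ones are not. Mgmt, which was chosen by its changes after such compounds, lies above all other repair genes in 7 profiles, and 0 of those genes are called in any.

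Transcripts of red blood cells fell after most of these compounds, idarubicin included. Of 5 measured genes of that list, 4 were called lower after epirubicin, doxorubicin, mitoxantrone, cyclophosphamide and valproic acid and 3 after daunorubicin, ifosfamide and idarubicin (1.17%, 0.682%, 0.521%, 0.267%, 0.703%, 0.239%, 0.352% and 0.155% of all genes were called lower). The list's median lay between 5.04 and 7.25 in epirubicin rats, against 7.03 to 8.78 in saline rats, and between 4.93 and 6.42 in ifosfamide rats, against 6.88 to 8.85 in their controls. The part of this shift in the Mgmt values was not tested. The lists of macrophages and heart muscle moved by median changes of 0.28 and 0.01 after epirubicin and 0.17 and -0.02 after doxorubicin.

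The genes whose pattern was most like that of Mgmt were sought over the treated conditions (51 of 1 d, 74 of 3 d, 81 of 5 d and 2 of other durations), with levels centred within campaigns. They were Aen and Mmp2 (Pearson r = 0.72 each), Zmat3 (0.68), Thyn1 (0.67), Phlda3 (0.65), Sesn2 (0.63), Jpt1 (0.61), Mdk (0.60), Usp11 (0.59) and Vash2 (0.59), against a median r of 0.01 over all other genes. Conditions share controls, campaigns and arrays of 1 design, so r is a description. It rested largely on a few compounds, since without the 12 conditions of intravenous epirubicin, doxorubicin, daunorubicin and mitoxantrone, r was 0.51 for Mmp2 and between 0.31 and 0.41 for the other 9. Over the control rats (52 of 1 d, 72 of 3 d, 85 of 5 d and 8 of other durations), r was highest for Mmp2 (0.44) and Usp11 (0.37) and lay between 0.05 and 0.28 for the rest.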

How the data were processed

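Heart RNA of each rat was hybridised to an Affymetrix rat genome array. The authors deposited log2 values per probe set, and the submitters' processing notes name RMA (background correction, normalization between arrays, summary of probes) with no version; the paper's methods name a frozen variant of it, and which of them made these values could not be settled. RMA shrinks changes of dim probe sets, so folds may be understated. Values ran from 3.15 to 14.8, with 0 array columns left out. Precision is limited by the number of rats, since arrays carry no read depth. Groups came from the labels; 12 controls with disagreeing labels entered no group, and 8 of them were used only in an alternative for oral daunorubicin.

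Each of 14217 genes was measured by its single-symbol probe set of highest mean. Where a rat had 2 arrays, the earlier campaign's was used. limma 3.58.1 (lmFit, eBayes; R 4.3.3) was fitted across all genes to each profile with duration and campaign as 1 factor, for 95 of 97 profiles, since 2'-Beta-Fluoro-2',3'-Deoxyadenosine and oral daunorubicin lacked matched controls. Benjamini-Hochberg adjustment ran over all genes. Nothing says whether the rats of a group were housed or dosed together, so errors measure the spread between these rats. Each compound set apart came from 1 study. Controls of that study numbered 2 for epirubicin, 6 for doxorubicin, 3 for idarubicin, 1 for daunorubicin and 0 for mitoxantrone. They numbered 1 for cyclophosphamide, 6 for ifosfamide and 0 for chlorambucil. Except for ifosfamide, compound and study therefore cannot be fully told apart. The gene, the lists and the thresholds were chosen with earlier results of these data known. Named were Mgmt, members of the lists, the 10 genes of highest r, called profiles and those at both ends of the order; cyclosporin A, vinca alkaloids, aldehydes and nucleoside analogues were added after their values were seen or for their class. The fits were tested on simulated data. The alternatives were other controls, the methods' t-test, the upper 60% of genes, a further quantile normalization, a random block for study or for hybridisation batch, the later array, and leaving out doubtful arrays (correlation under 0.95 with the mean array, liver median over 8 or adipocyte median over 7), each duration and each treated rat; leaving out each control rat was added after the data were seen. Figures were drawn with matplotlib 3.10.9.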

Additional observations from a re-analysis of the deposited data

Results flagged for a closer look

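In 1 of the 9 groups of 4 to 10 rats, a rat stood far from the others. Among 6 rats given the CMC/SDS/Povidone vehicle by gavage for 5 d, the lowest had a Mgmt level of 6.66, against 7.08 in the nearest, a gap of 0.69 of the group's range. Chance gives about 1 such group in 20, and no profile called for Mgmt was set against this group.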

How the results depend on the processing

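Over the alternatives that leave out no single rat, 10 of 134 values for the 8 profiles set apart, the counts, the tests of duration and the control hearts changed side of the threshold or moved, and 0 reversed. The count of profiles with Mgmt called higher was 4 after a new quantile normalization, which left cyclophosphamide and valproic acid at 0.58 each, under the fold limit, and ifosfamide at 0.60, over the limit of the adjusted p, and 2 of the 35 profiles that had controls of their own study. The setting with own study controls asked for at least 2 of them, so mitoxantrone (0), daunorubicin (1) and cyclophosphamide (1) could not enter it. Epirubicin entered with 6 rats of 1 and 3 d, without those of 5 d, against 2 such controls. It was at 1.16 and not called, whereas doxorubicin, with 9 rats against 6, was at 1.41. Ifosfamide also lost its call by the methods' t-test (0.65), without doubtful arrays (0.71), without the rats of 3 d (0.90) and without those of 5 d (0.41), and cyclophosphamide without those of 5 d (0.29). With each rat left out in turn, changes ran from 1.43 to 1.68 for epirubicin, 1.25 to 1.44 for doxorubicin, 0.98 to 1.05 for mitoxantrone, 0.93 to 1.06 for daunorubicin, 0.55 to 0.70 for ifosfamide, 0.50 to 0.70 for cyclophosphamide, 0.23 to 0.36 for idarubicin and 0.12 to 0.29 for chlorambucil. The lowest adjusted p of any test of duration was 0.0144, for cyclophosphamide without 1 rat. The cause of these losses was not tested, beyond the smaller number of rats where rats were left out. No other probe set of Mgmt was there to try, and the planned setting of daunorubicin by gavage against 8 rats of disagreeing labels gave 0.01 ± 0.10 (SE), which rests on the vehicle named in their titles. No paired analysis was possible because the labels carry no replicate numbers.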

Other observations

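The 12 control rats whose labels disagreed on vehicle or route had Mgmt levels from 6.64 to 7.29, inside the range of the other controls. In the experiment of daunorubicin by gavage, 8 of them had 7.06, 7.11 and 7.21 at 1 d, 6.68 and 7.16 at 3 d, and 6.64, 6.69 and 6.74 at 5 d, and they served as controls only in the alternative for oral daunorubicin. Loratadine at 2000 mg/kg had 6.66, 6.80 and 7.10 at 1 d and 7.15 and 8.07 at 5 d, and its changes were -0.44 ± 0.23 at 1 d and 0.90 ± 0.37 (SE) at 5 d. Its 3 control rats at each duration spread widely, with SDs of 0.49 and 0.43, and the interaction with duration had an adjusted p of 0.299 in limma.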
